A study of Arabidopsis thaliana with 5 samples.

Results

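The 41 genes described here encode the late embryogenesis abundant (LEA) proteins of Arabidopsis thaliana other than the dehydrins, EM1, EM6, M10, M17, COR15A and COR15B included. They were taken by AGI gene identifier from a table of read counts for 37336 genes, and 34 of them were among the 19003 genes with enough counts to be tested. The counts come from RNA-seq of whole developing seeds of dof4.1-3 (3 libraries) and of the wild type Col-0 (2 libraries). The mutant carries a T-DNA in the second exon of DOF4.1 (AT4G00940), which encodes a Dof-type transcription factor, and both genotypes are in the Col-0 background with no treatment named. The labels write the mutant as dof4-1, without its allele number, and the allele name used here is that of the paper. The mutant is 1 insertion allele. Seeds were collected at 9 days after pollination according to the labels and the methods, and at 10 according to the results of the study. The sources used here do not say whether the replicates came from separate plants, so the p-values reflect spread among libraries that may be technical repeats.

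LEA proteins accumulate in the embryo as the seed matures and are mostly hydrophilic and disordered in solution. They are thought to keep membranes, enzymes and the cytosol stable when water is withdrawn, and many of their genes respond to abscisic acid (ABA) through the seed transcription factors ABI3 and ABI5. The family is divided by conserved protein domains into classes, and several classes are also induced in leaves by drought or cold. The 41 genes comprise 18 of LEA_4, 6 of the seed maturation protein (SMP) class, 4 of LEA_3, 3 each of LEA_1, LEA_2 and PvLEA18, and 2 each of LEA_5 and AtM.

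Counts over genes totalled 20101091, 21722055 and 21053818 in dof4.1-3 replicates 1, 2 and 3, and 16500028 and 17049283 in Col-0 replicates 1 and 2. The 41 genes took 0.0795%, 0.117% and 0.111% of these counts in dof4.1-3, and 0.0986% and 0.0836% in Col-0. DOF4.1 itself had 3, 4 and 4 counts in dof4.1-3 and 1 and 14 in Col-0, which is too few to check the labels. Of 8 tested seed coat markers, 7 were lower in all dof4.1-3 libraries than in both Col-0 libraries, as were 18.3% of all tested genes. The markers summed to 1052 to 1169.8 CPM (counts scaled by normalized library size) in dof4.1-3 and to 1613 and 1909 CPM in Col-0, of which TT10 carried 51.7% to 56.7%. By edgeR's test 1 (BAN) fell, as did 0.963% of all tested genes. At an unadjusted p under 0.05, 6 of the 8 were lower and 1 higher, against 9.52% and 6.33% of all tested genes. DESeq2 called 4 lower, against 3.29% of all tested genes, and limma-voom 1. Of 5 tested endosperm markers, ZOU and ALE1 were below both Col-0 libraries in all of dof4.1-3 (log2 fold changes -0.91 and -1.20), against the same 18.3% of all tested genes. EdgeR called 0 of the 5 (2 lower at an unadjusted p under 0.05), DESeq2 2 lower and limma-voom 0. EPR1 carried 97.8% to 99.7% of the summed endosperm level, with 6341, 5960.0 and 16537 CPM in dof4.1-3 and 6169 and 6577 CPM in Col-0. Silique wall markers summed to 28.3 to 32.2 CPM in dof4.1-3 and to 52.7 and 60.3 CPM in Col-0. Of these 4, edgeR called 1 (SHP2) lower, with 3 lower at an unadjusted p under 0.05. DESeq2 and limma-voom each called 1 lower. Embryo markers summed to 4.39 to 9.61 CPM in dof4.1-3 and to 6.66 and 9.21 CPM in Col-0, pollen markers to 4.1 to 13.6 CPM in dof4.1-3 and to 10.6 and 16.2 CPM in Col-0, and photosynthesis markers to 13819 to 17869 CPM in dof4.1-3 and to 14169 and 18122 CPM in Col-0, with 0 called in the 3 lists by edgeR, DESeq2 or limma-voom and 1 embryo marker lower at an unadjusted p under 0.05. The part of tissue make-up in the LEA results below was not tested, and in whole seeds fewer cells of a type and less RNA per cell cannot be told apart.

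Promoters of these genes often hold an ABA-related element, and they are described before the levels. The window was the 250 bases before the annotated start of each gene in the TAIR10.1 assembly (RefSeq), and the count table holds no coordinates of its own. The core of the ABA-responsive element, ACGTG on either strand, occurred in 29 of the 41 windows (70.7%), against 22.9% of the windows of 27443 protein-coding genes. Its palindromic form CACGTG, the G-box, occurred in 48.8% of the LEA windows and 6.49% of all windows, and each G-box counts as 2 ABRE cores because it reads ACGTG on both strands. The share with an ABRE core was 83.3% of the 18 LEA_4 windows, and 25% of the 4 LEA_3 windows. The RY element CATGCA, on either strand, is known as the binding sequence of B3-domain factors such as ABI3, and occurred in 14.6% of the LEA windows and 8.43% of all windows. The letters AAAG, the core bound by Dof proteins, occurred in 97.6% of the LEA windows and 98% of all windows, so that the LEA genes did not stand apart in them. Matches of these letters describe the sequence and do not show binding. In 10 of the 41 windows some of the bases also lie in another annotated gene.

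The following 6 windows are shown as examples, in gene orientation with ABRE cores and RY elements in capitals. The first 4 are LEA_4 genes with a higher mean level in dof4.1-3, namely AT5G44310 (chr5:17849537-17849786, minus strand), AT4G36600 (chr4:17263314-17263563, plus strand), AT4G21020 (chr4:11227937-11228186, plus strand) and AT3G17520 (chr3:6000448-6000697, minus strand). EM6 (chr2:16780369-16780618, minus strand) differed widely between replicates, and AT2G23120 (chr2:9841592-9841841, plus strand) had the highest level in Col-0. All coordinates are of TAIR10.1.
AT5G44310: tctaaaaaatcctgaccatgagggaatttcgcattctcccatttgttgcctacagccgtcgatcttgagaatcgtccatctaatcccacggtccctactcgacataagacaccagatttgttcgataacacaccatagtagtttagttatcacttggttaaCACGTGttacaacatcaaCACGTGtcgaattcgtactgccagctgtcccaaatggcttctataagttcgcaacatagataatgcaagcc
AT4G36600: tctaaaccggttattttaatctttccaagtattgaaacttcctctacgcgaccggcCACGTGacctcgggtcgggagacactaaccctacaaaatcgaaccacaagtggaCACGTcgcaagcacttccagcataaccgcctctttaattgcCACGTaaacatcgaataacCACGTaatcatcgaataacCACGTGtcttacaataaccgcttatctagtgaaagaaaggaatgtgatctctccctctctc
AT4G21020: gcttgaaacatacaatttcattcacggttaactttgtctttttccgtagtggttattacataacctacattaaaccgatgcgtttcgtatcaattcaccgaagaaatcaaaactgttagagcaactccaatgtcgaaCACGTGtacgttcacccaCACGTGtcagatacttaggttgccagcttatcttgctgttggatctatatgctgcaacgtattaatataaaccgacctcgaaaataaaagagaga
AT3G17520: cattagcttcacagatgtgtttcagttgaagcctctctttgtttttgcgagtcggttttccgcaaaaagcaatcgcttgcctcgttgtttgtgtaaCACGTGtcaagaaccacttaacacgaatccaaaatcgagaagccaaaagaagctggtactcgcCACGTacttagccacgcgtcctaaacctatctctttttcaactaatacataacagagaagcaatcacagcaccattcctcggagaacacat
EM6: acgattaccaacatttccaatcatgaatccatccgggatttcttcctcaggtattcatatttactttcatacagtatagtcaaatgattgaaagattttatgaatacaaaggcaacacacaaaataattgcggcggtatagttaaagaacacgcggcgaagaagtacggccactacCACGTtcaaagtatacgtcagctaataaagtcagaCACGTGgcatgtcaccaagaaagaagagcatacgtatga
AT2G23120: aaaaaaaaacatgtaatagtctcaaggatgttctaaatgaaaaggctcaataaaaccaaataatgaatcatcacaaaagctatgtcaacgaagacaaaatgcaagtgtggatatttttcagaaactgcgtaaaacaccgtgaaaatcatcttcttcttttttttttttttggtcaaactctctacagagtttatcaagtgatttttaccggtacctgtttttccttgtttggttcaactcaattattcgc
AT5G44310 and AT4G21020 each hold 2 G-boxes and so 4 ABRE cores, AT4G36600 holds 7 ABRE cores in 5 stretches, AT3G17520 and EM6 hold 3 each, and AT2G23120 holds 0. The window of AT5G44310 was the LEA window without the letters AAAG on either strand. Among the LEA_4 windows not shown, AT1G72100 holds 4 ABRE cores and 1 G-box, and LEA29 (AT3G15670) holds 3 ABRE cores and 0 G-boxes.

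The level of each gene in Col-0 seeds is given in TPM, which divides counts by exon length and scales each library to the same total, and so allows levels of different genes to be compared. Together the 41 genes reached 1208 TPM in Col-0, of which the 5 most abundant made up 55.6% and the 12 most abundant 87.0%. The highest level was that of AT2G23120, a small protein of the PvLEA18 class named after a bean homologue, with 271.9 ± 4.08 TPM (SD, n = 2 here and for the Col-0 levels that follow). It was followed by LEA26 (AT2G44060, LEA_2) with 140.3 ± 9.72 TPM, AT1G02820 (LEA_3) with 106 ± 27.6 TPM, LEA4-1 (AT1G32560, LEA_1) with 78.1 ± 6.42 TPM and LEA14 (AT1G01470, LEA_2) with 74.9 ± 6.55 TPM. The first 4 of this order did not overlap between their Col-0 libraries, whereas LEA14, at 70.3 and 79.5 TPM, overlapped LEA4-1, at 73.6 and 82.7 TPM.

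**Figure D1:**
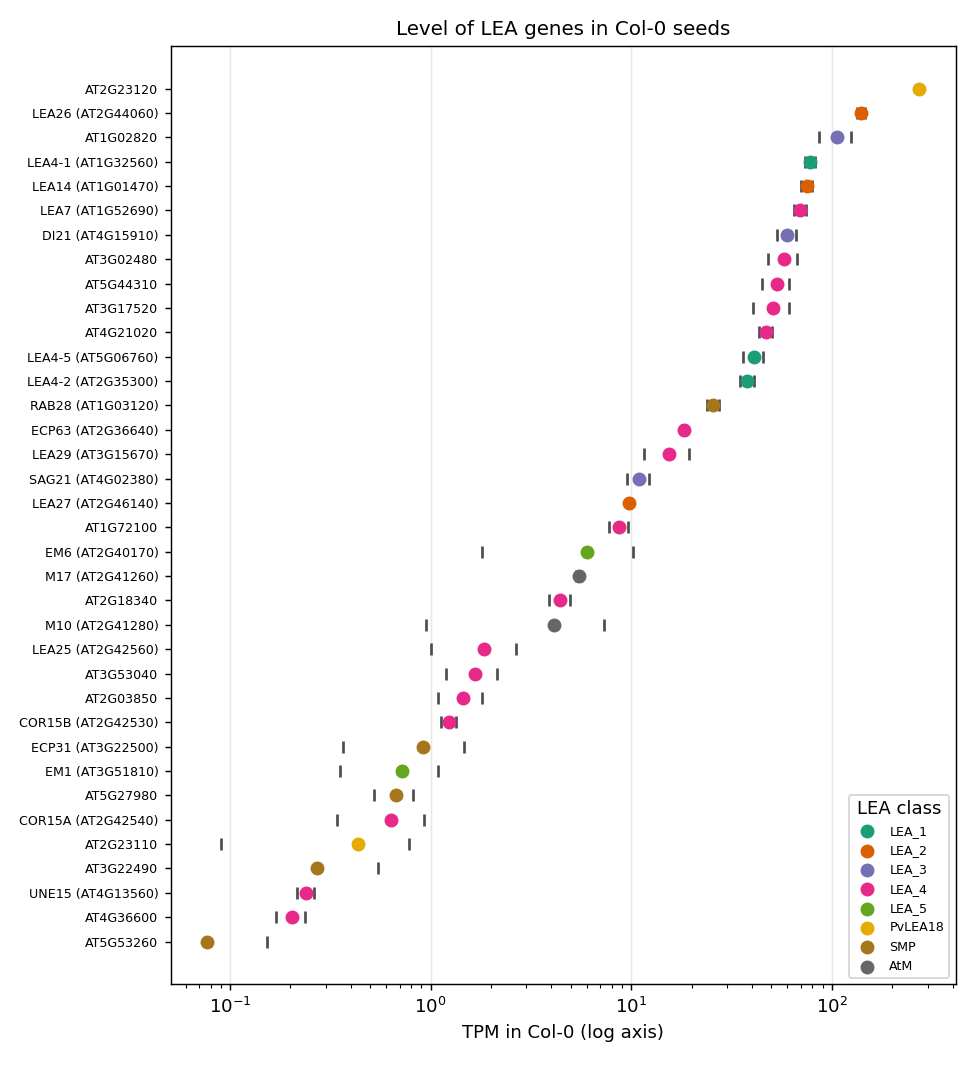
Level in Col-0 seeds of the 36 LEA genes with counts there, in TPM on a log axis. Circles are the mean of 2 libraries coloured by class and ticks the libraries (a library at 0 has no tick), and the levels run over more than 3 orders of magnitude from AT2G23120 at 271.9 TPM downwards.

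A broad middle group followed with levels that overlapped between neighbours. LEA7 (AT1G52690, LEA_4) had 69.8 ± 6.75 TPM, DI21 (AT4G15910, a drought-induced LEA_3 protein) had 60.0 ± 9.32 TPM, and AT3G02480 (LEA_4) had 57.8 ± 13.5 TPM. AT5G44310, AT3G17520 and AT4G21020, all of LEA_4, had 53.2 ± 11.6, 50.7 ± 14.4 and 47.1 ± 4.92 TPM. In total 10 genes were over 50 TPM and 17 over 10 TPM, while 14 were under 1 TPM. RAB28 (AT1G03120), named for its response to ABA, was the highest SMP gene with 25.7 ± 2.44 TPM. Transcripts of the proteins best known from dry seeds were at low levels at this stage. EM6 had 6.02 ± 5.96 TPM, M17 had 5.48 ± 0.231 TPM, M10 had 4.14 ± 4.52 TPM and EM1 had 0.721 ± 0.522 TPM. COR15B and COR15A, chloroplast proteins that protect membranes in the cold, had 1.23 ± 0.147 and 0.633 ± 0.411 TPM. Exon lengths of the longest transcript in place of all exons gave a summed level of all members within the spread between the Col-0 libraries. Single genes were not compared in this way.

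Between genotypes, 11 of 16 tested LEA_4 genes had a higher fitted level in dof4.1-3 seeds and 3 of 3 LEA_2 genes a lower one, but 0 members passed the test. The test was edgeR's quasi-likelihood F test, adjusted by the method of Benjamini and Hochberg across the 19003 tested genes, and a positive log2 fold change means a higher level in dof4.1-3 than in Col-0. At an adjusted p under 0.05, 0 of 34 tested members were higher and 0 lower, where 0.121% of all tested genes were higher and 0.963% lower. At an unadjusted p under 0.05, 7 members (20.6%) were higher and 1 (2.94%) lower, against 6.33% and 9.52% of all genes. In CPM, every dof4.1-3 library was above both Col-0 libraries in 5 members (14.7%) and below both in 2 (5.88%), against 16.3% and 18.3% of all genes. Separation of the libraries in CPM was thus not more frequent in the LEA genes than in the table as a whole. By TPM some members that overlapped in CPM were separate, among them AT2G23120, LEA26 and AT1G02820 below Col-0 and LEA29 (AT3G15670) above it. The share of all genes that separate by TPM was not computed. DESeq2 called 5 members higher (14.7%) and 0 lower, against 1.36% and 3.29% of all genes, and limma-voom called 0 in either direction. An exact permutation test of 3 against 2 libraries cannot give a p below 0.1.

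The log2 fold change was positive in 21 and negative in 13 of the 34 tested members, and its median was 0.49, against 0.03 over all tested genes. By class the median was 1.00 in LEA_4 (16 tested), 0.55 in LEA_1 (3), 1.15 in SMP (3), 0.66 in LEA_5 (2), 0.11 in AtM (2), 0.10 in PvLEA18 (2), -0.32 in LEA_2 (3) and -0.57 in LEA_3 (3). The 18 tested members outside LEA_4 had a median of 0.13. With limma-voom the median of the 34 was 0.0286, against 0.0113 over all genes, while that of LEA_4 was 1.06 and those of SMP, PvLEA18 and AtM were 0.48, -0.22 and -0.35. Without Col-0 replicate 2, the median of the 34 was -0.02 and that of LEA_4 0.51. Without Col-0 replicate 1, the medians were 0.93 and 1.30.

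**Figure D2:**
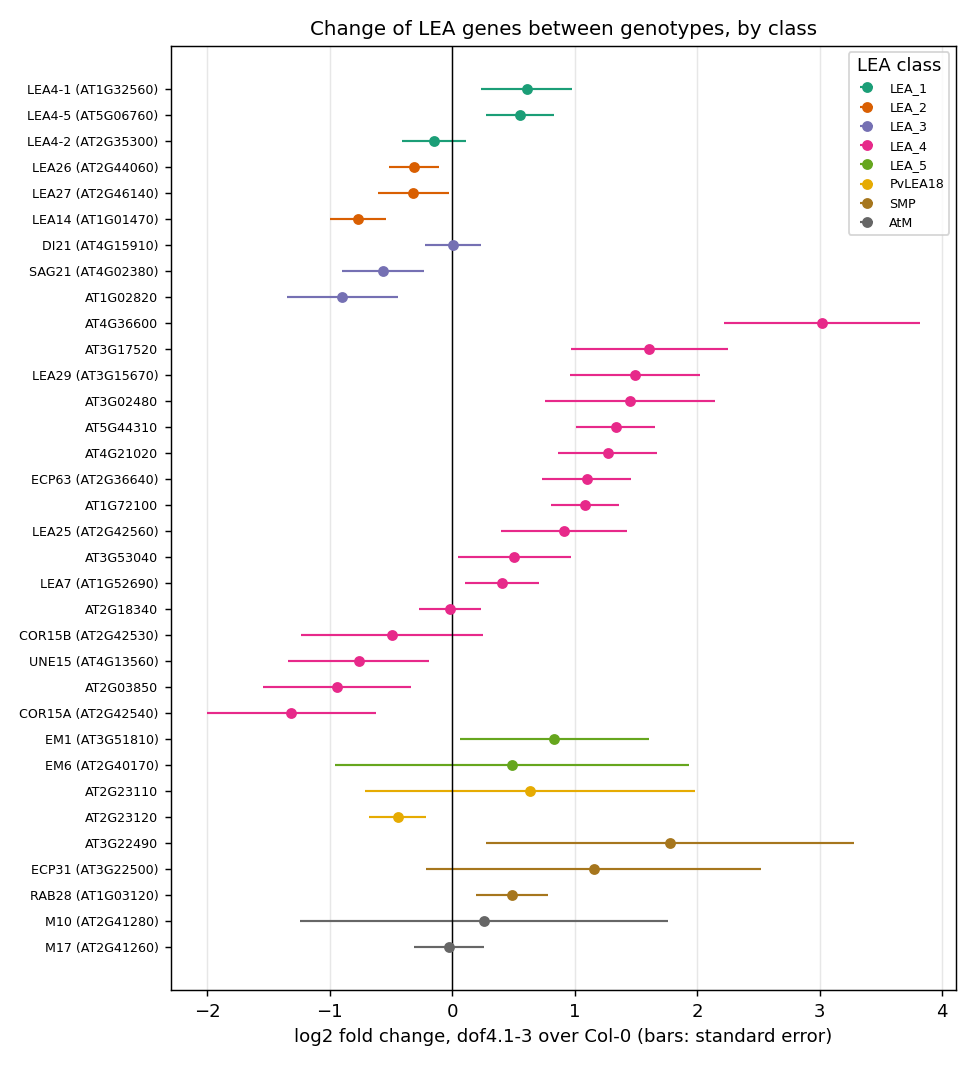
Log2 fold change (dof4.1-3 over Col-0) of the 34 tested LEA genes, grouped and coloured by class, with bars for the standard error. LEA_4 spans the range from -1.31 (COR15A) to 3.02 (AT4G36600), and the 3 LEA_2 genes lie below 0.

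LEA_4 is the largest class, and its proteins fold into amphipathic helices on drying. Of its 16 tested genes, the log2 fold change was positive in 11 and negative in 5, 7 had an unadjusted p under 0.05 with a higher level in dof4.1-3, and 5 had all 3 dof4.1-3 libraries above the Col-0 pair in CPM. AT5G44310 had the smallest p of the family, with 79.3, 161 and 170.5 CPM in dof4.1-3 and 53.2 and 55.1 CPM in Col-0. The 2 Col-0 libraries were nearly equal and all dof4.1-3 libraries lay above them, with replicate 1 the nearest. The log2 fold change was 1.34 (SE 0.32), with an adjusted p of 0.0902 by edgeR and 0.00295 by DESeq2.

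AT1G72100, which encodes a larger protein with LEA_4 repeats, had 18.7, 19.4 and 27.9 CPM in dof4.1-3 and 12.9 and 7.94 CPM in Col-0. Here the groups were also separate, with a log2 fold change of 1.08 (SE 0.28) and an adjusted p of 0.102 by edgeR and 0.0222 by DESeq2. AT4G36600 was a gene of low level, with 12, 52 and 28 counts in dof4.1-3 and 3 and 4 in Col-0. Its log2 fold change of 3.02 (SE 0.80, edgeR adjusted p = 0.111, DESeq2 adjusted p = 0.0210) was the largest in the family, and the ratio of the summed counts was 8.07 with a 95% counting interval of 3.76 to 20.6. That interval covers counting error only, and the dof4.1-3 libraries differed among themselves from 0.547 to 2.82 CPM. Without dof4.1-3 replicate 2 the log2 fold change of AT4G36600 was 2.34.

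AT4G21020 had 43.0, 128 and 88.0 CPM in dof4.1-3 and 38.2 and 33.6 CPM in Col-0, a log2 fold change of 1.27 (SE 0.41, edgeR adjusted p = 0.188, DESeq2 adjusted p = 0.0292). ECP63 (AT2G36640), named after a carrot protein of embryogenic cells, had 25.5, 48.6 and 65.7 CPM in dof4.1-3 and 24.2 and 19.4 CPM in Col-0 (log2 fold change 1.1, SE 0.36, edgeR adjusted p = 0.193). In both genes dof4.1-3 replicate 1 was only slightly above Col-0 replicate 1. In CPM the next 3 genes overlapped between genotypes at that same pair of libraries. LEA29 (AT3G15670) had 15.6, 48.8 and 31.5 CPM in dof4.1-3 and 15.7 and 7.15 CPM in Col-0 (log2 fold change 1.49, SE 0.53, edgeR adjusted p = 0.242, DESeq2 adjusted p = 0.0312). AT3G17520 had 49.2, 163 and 212 CPM in dof4.1-3 and 61.7 and 31.2 CPM in Col-0 (log2 fold change 1.61, SE 0.64, edgeR adjusted p = 0.301). AT3G02480, a short protein, had 24.3, 117 and 44.9 CPM in dof4.1-3 and 29.5 and 16.0 CPM in Col-0 (log2 fold change 1.45, SE 0.69, edgeR adjusted p = 0.380), and its log2 fold change was 0.62 without dof4.1-3 replicate 2. That of LEA29 ran from 1.03 without Col-0 replicate 2 to 2.16 without Col-0 replicate 1.

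In CPM, replicate 1 of dof4.1-3 was the lowest of its group in 10 of the 11 LEA_4 genes with a positive log2 fold change. Col-0 replicate 2 was the lowest of all libraries in 9 of these 11 genes. The choice of genes with a positive log2 fold change itself favours a Col-0 library as the lowest. The shares over all tested genes were not computed. By TPM, Col-0 replicate 2 was not the lowest library for AT4G21020, ECP63 and LEA7, which are among the 9. Likewise dof4.1-3 replicate 1 was by TPM not the lowest of its group for AT1G72100. Summed over LEA_4, the level was 308, 779.8 and 722 CPM in dof4.1-3 and 305 and 217 CPM in Col-0. Thus 1 of the 3 dof4.1-3 libraries was at the level of Col-0 replicate 1. Without dof4.1-3 replicate 1, edgeR called 6 members higher, all of LEA_4, where 0.865% of all genes tested in that fit were higher (162, against 23 in the fit of all 5 libraries). The 6 were AT5G44310 (log2 fold change 1.61, adjusted p = 0.00409), AT4G21020 (1.59, 0.00746), AT3G17520 (2.02, 0.0104), AT4G36600 (3.44, 0.0119), ECP63 (1.40, 0.0125) and LEA29 (1.82, 0.0366). Without dof4.1-3 replicate 2 it called AT1G72100 higher (log2 fold change 1.18, adjusted p = 0.0382), where 0.968% of all genes were, and without dof4.1-3 replicate 3 or either Col-0 library it called 0 higher.

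**Figure D3:**
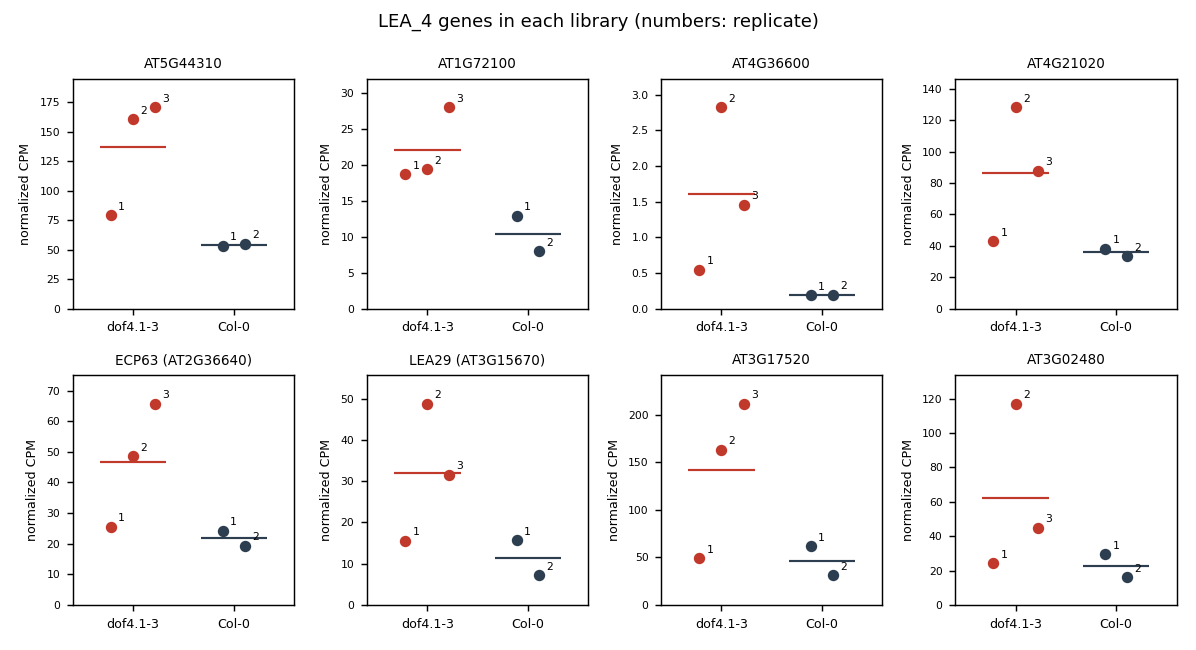
Normalized CPM of 8 LEA_4 genes in each library, on linear axes from 0, with dof4.1-3 left and Col-0 right, a number at each point for the replicate and a line for the group mean. Replicate 1 of dof4.1-3 is the point nearest to Col-0 in all 8 panels, for example 79.3 CPM against 161 and 170.5 CPM for AT5G44310.

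The storage proteins, cruciferins and napins, varied in their summed level over the libraries in the same order as the summed LEA_4 level. They summed to 128614, 332401 and 207746 CPM in dof4.1-3 and to 99945 and 51131 CPM in Col-0. For all 9 the 3 dof4.1-3 libraries lay above the Col-0 pair, as for 16.3% of all tested genes, and the median log2 fold change was 1.59. At an adjusted p under 0.05, edgeR called 0 of the 9 (9 at an unadjusted p under 0.05, smallest adjusted p = 0.0879), DESeq2 7 higher and limma-voom 0. In both sums dof4.1-3 replicate 2 was highest and Col-0 replicate 2 lowest. Single LEA_4 genes did not all follow this order. AT5G44310, AT1G72100, ECP63 and AT3G17520 were highest in dof4.1-3 replicate 3, and AT5G44310 and AT4G36600 were lowest in Col-0 replicate 1. Whether the 2 sets moved for a shared reason was not tested.

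The remaining LEA_4 genes had smaller positive log2 fold changes or negative ones. LEA7 had 37.9, 71.7 and 67.1 CPM in dof4.1-3 and 53.6 and 35.4 CPM in Col-0, with a log2 fold change of 0.40 (SE 0.30). LEA25 (AT2G42560) and AT3G53040 had log2 fold changes of 0.91 (SE 0.52) and 0.51 (SE 0.46), and AT2G18340 one of -0.02 (SE 0.25). LEA25 had 3.55, 7.49 and 5.56 CPM in dof4.1-3 and 4.63 and 1.32 CPM in Col-0, and its log2 fold change was 2.06 without Col-0 replicate 1 and 0.25 without Col-0 replicate 2. That of AT3G53040 was 1.25 and 0.0011 in the same 2 fits. The cold-regulated pair lay on the negative side at very low counts. COR15A had 0.456, 0.217 and 0.104 CPM in dof4.1-3 and 0.432 and 0.882 CPM in Col-0, a log2 fold change of -1.31 (SE 0.69, edgeR adjusted p = 0.392). COR15B had 1.59, 1.14 and 0.104 CPM in dof4.1-3 and 1.42 and 1.27 CPM in Col-0 (-0.49, SE 0.74). For COR15A dof4.1-3 replicate 1 overlapped Col-0 replicate 1, and COR15B was low in dof4.1-3 replicate 3 and otherwise near Col-0. AT2G03850 (-0.94, SE 0.60) was below Col-0 in every dof4.1-3 library at 3 to 12 counts, and UNE15 (AT4G13560) had a log2 fold change of -0.76 (SE 0.57) at 6 to 14 counts per library. COR15A and COR15B are neighbours with 7 bases between them, and 29.5% of the exon bases of COR15B lie under the antisense gene AT2G42520, so that reads of COR15B and AT2G42520 cannot be told apart there in this unstranded count. UNE15 has 4151 exon bases around a coding sequence of 330 bases, which makes its TPM uncertain.

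LEA_1 proteins shield enzymes from drying in vitro. LEA4-1 had 39.0, 100.1 and 77.2 CPM in dof4.1-3 and 56.5 and 38.1 CPM in Col-0, with a log2 fold change of 0.61 (SE 0.37). LEA4-5 (AT5G06760) had 28.5, 47.5 and 39.4 CPM in dof4.1-3 and 32.7 and 19.7 CPM in Col-0 (0.55, SE 0.28, edgeR adjusted p = 0.374). In both, dof4.1-3 replicate 1 lay between the Col-0 libraries. LEA4-2 (AT2G35300) had a log2 fold change of -0.15 (SE 0.26).

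LEA_2 proteins differ from most LEA proteins in having a folded domain, and all 3 genes had negative log2 fold changes. LEA14, known for its induction by drought and salt, had 36.6, 49.6 and 39.1 CPM in dof4.1-3 and 85.3 and 57.1 CPM in Col-0. Every dof4.1-3 library was below both Col-0 libraries, and the log2 fold change was -0.77 (SE 0.23, edgeR adjusted p = 0.145). Without dof4.1-3 replicate 2 LEA14 was called lower (-0.90, edgeR adjusted p = 0.0402), 1 of 34 members, where 3.78% of all genes were. LEA26 had 99.3, 127 and 108 CPM in dof4.1-3 and 151 and 126 CPM in Col-0 (-0.31, SE 0.21), and the groups overlapped in CPM at a single pair of libraries but not in TPM. LEA27 (AT2G46140) had a log2 fold change of -0.32 (SE 0.29).

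In LEA_3, AT1G02820 had 37.5, 46.3 and 15.7 CPM in dof4.1-3 and 81.3 and 42.4 CPM in Col-0, a log2 fold change of -0.90 (SE 0.45, edgeR adjusted p = 0.391). Replicate 3 of dof4.1-3 was far below the others, and replicate 2 overlapped Col-0 in CPM but not in TPM. SAG21 (AT4G02380), a mitochondrial protein linked to oxidative stress and senescence, had a log2 fold change of -0.57 (SE 0.34), and DI21 one of 0.01 (SE 0.23). Of the exon bases of SAG21, 18.6% are shared with the overlapping gene AT4G04125. AT2G23120, the PvLEA18 gene of highest level, had 89.0, 112 and 132 CPM in dof4.1-3 and 173 and 129 CPM in Col-0, a log2 fold change of -0.45 (SE 0.23, edgeR adjusted p = 0.393). The overlap in CPM rested on dof4.1-3 replicate 3 and was absent in TPM. Of the exon bases of AT2G23120, 18.2% lie under the antisense gene AT2G23118.

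By these differences the make-up of the LEA transcripts differed between the libraries of the genotypes. LEA_4 made up 37.5%, 53.6% and 53.9% of the summed LEA TPM in dof4.1-3, and 27.4% and 27.7% in Col-0. In CPM its share was 42.3%, 56.4% and 59.5% in dof4.1-3, and 30.4% and 31.0% in Col-0. LEA_2 and LEA_3, the classes with negative median log2 fold changes in these same libraries, were pooled, which itself favours a gap between genotypes. Together they made up 30.2%, 20.1% and 17.3% of the summed LEA CPM in dof4.1-3, and 38.2% and 38.1% in Col-0. The groups did not overlap in either share. Both are parts of the same total, so a higher LEA_4 share lowers the other, and they are not separate results. No share was tested. The summed LEA_2 level was 140, 183 and 152 CPM in dof4.1-3 and 243 and 188 CPM in Col-0. That of LEA_3 overlapped, with 79.6, 95.6 and 57.1 CPM in dof4.1-3 and 139 and 77.6 CPM in Col-0. The total LEA level also overlapped, with 1072, 1469 and 1406.5 TPM in dof4.1-3 and 1276 and 1139.8 TPM in Col-0.

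The genes of the last stage of maturation varied more between replicates than between genotypes. EM6 (AT2G40170), which with EM1 is among the most abundant proteins of dry seeds and is a target of ABI5, had 171, 108 and 1 counts in dof4.1-3 and 95 and 16 in Col-0. This was 7.79, 5.86 and 0.0519 CPM in dof4.1-3 and 5.86 and 0.784 CPM in Col-0, and the log2 fold change of 0.49 had an SE of 1.45 (edgeR adjusted p = 0.900). M10 (AT2G41280), whose transcript depends on ABI3, had 2.23, 4.56 and 0 CPM in dof4.1-3 and 3.52 and 0.343 CPM in Col-0 (log2 fold change 0.26, SE 1.5). Both genes were high in dof4.1-3 replicates 1 and 2 and in Col-0 replicate 1, low in Col-0 replicate 2, and at 1 or 0 counts in dof4.1-3 replicate 3. Of the endosperm markers EPR1 was highest in that same library and the other 4 tested were not, and their part in the LEA values was not tested.

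In other members of low level, named here after their values were seen, dof4.1-3 replicate 3 and Col-0 replicate 2 were also the lowest of their groups. ECP31 (AT3G22500, SMP) had 1.87, 3.15 and 0 CPM in dof4.1-3 and 1.30 and 0.245 CPM in Col-0. AT3G22490 (SMP) had 0.592, 1.52 and 0 CPM in dof4.1-3 and 0.432 and 0 CPM in Col-0, and AT2G23110 (PvLEA18) had 0.228, 1.14 and 0 CPM in dof4.1-3 and 0.555 and 0.0490 CPM in Col-0. EM1 (AT3G51810) had 1.18, 1.14 and 0.260 CPM in dof4.1-3 and 0.802 and 0.196 CPM in Col-0 (log2 fold change 0.83, SE 0.77). With 0 counts taken at a floor of 3 counts (0.156 CPM), M10 and ECP31 were at least 14.3-fold and at least 12-fold lower in dof4.1-3 replicate 3 than in either other dof4.1-3 library. EM6, with 1 count in replicate 3, was 113-fold higher in replicate 2 (95% counting interval 19.8 to 4500, which covers counting error only), or 37.6-fold with its count set to that floor. A gap of 10-fold or more to both other libraries, by that floor, occurred in 9 of the 19003 tested genes (0.0474%), 3 of which were these LEA members, and the limit of 10-fold was chosen after the values were seen. The other 6 were AT1G68250, LCR67, NSP2, BGLU19, AT4G11310 and AT5G35660, and all 6 were also lower in Col-0 replicate 2 than in Col-0 replicate 1.

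**Figure D4:**
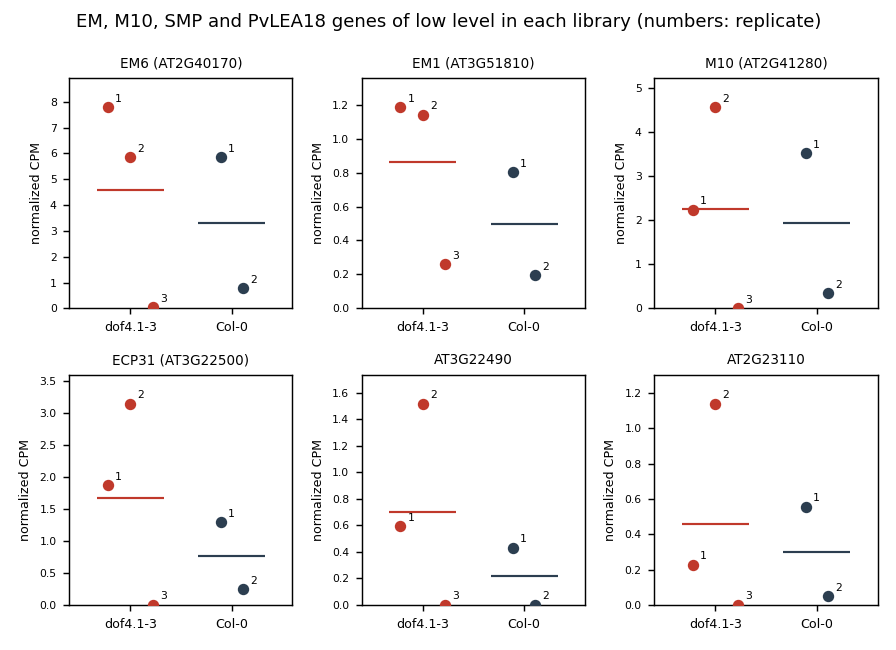
Normalized CPM of EM6, EM1, M10, ECP31, AT3G22490 and AT2G23110 in each library, on linear axes from 0, with dof4.1-3 left and Col-0 right, a number for the replicate and a line for the group mean. Replicate 3 of dof4.1-3 and replicate 2 of Col-0 are the lowest points of their groups in all 6 panels, as for EM6 with 0.0519 and 0.784 CPM.

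This was not seen in the whole family. RAB28, the SMP gene of highest level, had 12.9, 23.5 and 15.5 CPM in dof4.1-3 and 14.9 and 9.85 CPM in Col-0 (log2 fold change 0.49, SE 0.29). M17 (AT2G41260), which lies 1998 bases from M10 on chromosome 2, had 3.37, 4.83 and 4.57 CPM in dof4.1-3 and 4.81 and 3.87 CPM in Col-0 (-0.03, SE 0.29), with no drop in dof4.1-3 replicate 3. Across the tested members, dof4.1-3 replicate 3 was the lowest of its group in 15 of 34, against 32.1% of all tested genes. Col-0 replicate 1 was above Col-0 replicate 2 in 30 of 34 members, against 49.3% of all tested genes. By TPM, which is scaled differently, Col-0 replicate 1 was above replicate 2 in 24 of 34 and below it in 10, LEA26, AT5G44310 and AT4G21020 among them. The count therefore depends on the scaling of the libraries.

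A further 7 members were not tested with the filter on low counts. AT3G53770 (LEA_3), AT2G33690 (PvLEA18) and AT5G53270 (SMP) had 0 counts in all 5 libraries. AT2G03740 and AT4G13230 (both LEA_4) had 2 counts each in a single dof4.1-3 library, and AT5G53260 (SMP) had 0, 2 and 0 counts in dof4.1-3 and 0 and 1 in Col-0. AT5G27980 (SMP) had 1, 4 and 7 counts in dof4.1-3 and 6 and 9 in Col-0. With no filter on low counts the 4 members with counts were tested and none was called by edgeR (adjusted p = 0.670 for AT5G27980).

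The dehydrins, the LEA class left out of the family above, were compared because they share its role. Of 9 tested dehydrins, edgeR called 0 higher (1 at an unadjusted p under 0.05, 1 by DESeq2 and 0 by limma-voom). It called 4 lower in dof4.1-3, where 0.963% of all tested genes were lower. They were LTI30 (log2 fold change -1.64, adjusted p = 0.0155), COR47 (-1.52, adjusted p = 0.0158), ERD14 (-1.32, adjusted p = 0.0304) and HIRD11 (-1.04, adjusted p = 0.0448). COR47, a cold-regulated dehydrin, had 62.2, 44.7 and 46.3 CPM in dof4.1-3 and 136 and 157 CPM in Col-0. The seed-type dehydrin AT2G21490 had 245, 696 and 599 CPM in dof4.1-3 and 258 and 136 CPM in Col-0 (log2 fold change 1.38, SE 0.47, edgeR adjusted p = 0.206), with dof4.1-3 replicate 1 within the Col-0 range as in LEA29 and AT3G17520.

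Among 14 regulators of seed maturation, edgeR called 0 higher (5 at an unadjusted p under 0.05, 2 by DESeq2 and 0 by limma-voom) and 1 lower. Of all tested genes edgeR called 0.121% higher and 0.963% lower. LEC1, which promotes the embryo's maturation programme, fell by 1.42 on the log2 scale (edgeR adjusted p = 0.0209), with 19.0, 15.6 and 22.9 CPM in dof4.1-3 and 56.5 and 46.4 CPM in Col-0. ABI3 had 149.8, 115 and 146 CPM in dof4.1-3 and 57.7 and 93.0 CPM in Col-0 (log2 fold change 0.86, SE 0.25, edgeR adjusted p = 0.140). DOG1, a regulator of dormancy that acts with ABI3, had 13.0, 32.0 and 26.2 CPM in dof4.1-3 and 9.68 and 6.91 CPM in Col-0 (1.52, SE 0.37, edgeR adjusted p = 0.0952). Neither ABI3 nor DOG1 passed edgeR's test, although in both every dof4.1-3 library was above both Col-0 libraries. Of the 14 regulators, 5 were above in this way and 4 below, against 16.3% and 18.3% of all tested genes. ABI5 had 6.51, 4.07 and 4.83 CPM in dof4.1-3 and 4.38 and 3.92 CPM in Col-0 (0.31, SE 0.29, edgeR adjusted p = 0.633), and the groups overlapped.

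Promoter letters and response can be set side by side only as a description. All 7 LEA_4 members with an unadjusted p under 0.05 held an ABRE core and 6 of the 7 held a G-box, among 15 and 13 of all 18 LEA_4 genes. LEA7 and AT2G18340, with log2 fold changes of 0.40 and -0.02, hold 5 ABRE cores each, and LEA14, at -0.77, holds 2. Of the tested members with 0 cores, ECP31 had a log2 fold change of 1.15 (SE 1.37). The others, LEA26, AT1G02820, SAG21, COR15B, UNE15, AT2G23120 and M17, had negative ones. Gene length also differed between the classes, with a median exon length of 1525 bases in tested LEA_4 genes, 910.5 bases in the other tested members and 1777 bases in all tested genes. After the trend of log counts over length had been removed from each library, the median log2 fold change was 0.96 in LEA_4 and 0.76 over all tested members. Without that step they were 1.00 and 0.49. The medians of all other classes rose, to 0.81 in LEA_1, 1.35 in SMP, 1.02 in LEA_5 and 0.43 in AtM. They were 0.37 in PvLEA18, -0.22 in LEA_2 and -0.33 in LEA_3. LEA_4 thus stood less apart from the other members in this fit.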

How the data were processed

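The deposited table holds raw counts of reads per gene, which the authors made by trimming with cutadapt, checking with FastQC, mapping paired reads of 50 nt to TAIR10 with HISAT2 and counting with htseq-count without strand. The sources used here give no versions of these tools. The table has 0 other columns of samples. Its 9 blank rows and the summary lines of htseq-count were left out (reads without a feature were 0.727% to 1.74%). Library totals were 16500028 to 21722055.

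Genes were kept by filterByExpr, scaled with TMM and tested with edgeR 4.0.16 (quasi-likelihood, robust, genotype only, 3 residual degrees of freedom) with Benjamini-Hochberg adjustment at 0.05, in R 4.3.3. CPM are TMM-normalized, TPM use the exon lengths of TAIR10.1. The standard error is the log2 fold change divided by the square root of F. The scripts were tested on simulated data.

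Alternatives were DESeq2 1.42.0, limma-voom (limma 3.58.1), RLE factors, scaling without the 50 most abundant genes, no filter, at least 10 counts in every library, removal of the length trend (lowess, span 0.3), the replicate block, both together, and each library left out.

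Members, classes and lists (dehydrins, storage proteins, maturation regulators and markers of endosperm, seed coat, silique wall, embryo, pollen and photosynthesis) were chosen with earlier results of these data, and the paper's list of changed genes, known. Values of every library are given for members that passed, the 12 with the smallest p, the most abundant of each class, EM1, EM6, M10, M17, COR15A and COR15B, and further ones where stated. Genes outside the family are those of the lists that passed, or up to 2 of the smallest p, and further ones such as ABI5 where stated. Plots used Python 3.11.15 with matplotlib 3.10.9.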

Additional observations from a re-analysis of the deposited data

How the results depend on the processing

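The 0 members called higher by edgeR became 5 with DESeq2 and 3 when genes of low counts were kept (AT5G44310, AT1G72100 and AT4G36600), and 0 to 6 when 1 library was left out, and the 0 called lower became 0 to 1. Keeping those genes raised the number of tests and gave calls of 170 higher and 565 lower over all genes, and DESeq2 called 258 and 625, against 23 and 183 by edgeR. Over all genes the length trend removed gave 10 and 45, with the replicate block as well 2 and 2, and 1 library left out 0 to 181 and 0 to 707. With 1 library left out, the median log2 fold change ran from -0.0202 to 0.93 over the tested members, 0.51 to 1.30 in LEA_4, 0.29 to 1.78 in SMP, -0.90 to -0.14 in LEA_3, -0.12 to 2.32 in LEA_5, -0.48 to 1.42 in PvLEA18 and -0.42 to 1.42 in AtM. In these fits the log2 fold change changed sign in 8 of 34 members, namely EM6 (-0.35 to 2.54), M10 (-0.71 to 2.70), M17 (-0.18 to 0.14), COR15B (-1.11 to 0.0312), AT2G23110 (-0.31 to 3.05), LEA4-2 (-0.44 to 0.21), DI21 (-0.31 to 0.41) and AT2G18340 (-0.0681 to 0.0246), and the fold moved by over 1.5 times in 13, among them EM1 (0.11 to 2.11), ECP31 (0.36 to 2.74), AT3G22490 (0.69 to 6.82) and COR15A (-1.72 to -0.70). With limma-voom EM6 was at -0.34 and M10 at -0.66. With the length trend removed M17 was at 0.15. Where a Col-0 library was left out, the 1 that remained was assumed to vary like the others. With 2 shared replicate numbers, samples of the same number did not deviate together (correlations -0.25 and -0.29), and the labels do not say that a number marks a batch. The replicate block called 0 members and put COR15B at 0.00709, and with the length trend removed COR15B was at 0.0456 and M17 at 0.0739. Of 299 values of 22 of the 34 tested members over all alternatives, 270 kept direction and side of the threshold, 16 passed it in addition and 13 reversed. At least 10 counts in every library left no LEA_5 gene, so no value was obtained there. RLE factors and scaling without the 50 most abundant genes changed no call. The causes of these changes were not tested. Depth limits the tested members with under 100 counts in every library. These are EM1, M10, M17, ECP31, COR15A, COR15B, UNE15, AT2G03850, AT2G18340, AT2G23110, AT3G22490, AT3G53040 and AT4G36600. Having only 2 Col-0 libraries limits all of the results.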
